A study of Rattus norvegicus with 70 samples.

Results

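Glucocorticoid-induced genes were followed through the organs of rats given bisphenols. The set holds 8 genes, Tsc22d3, Fkbp5, Zbtb16, Usp2, Mfsd2a, Cdkn1a, Hsd11b1 and Nr3c1, taken by symbol from the 17048 rows of the deposited count table, and each symbol matched 1 row. The name fits most of them: Nr3c1 encodes the glucocorticoid receptor itself and Hsd11b1 an enzyme that regenerates active hormone, and the other 6 are taken as induced genes, among which Tsc22d3, Fkbp5 and Zbtb16 are textbook targets of the receptor. The genes were chosen by earlier results of these libraries, namely the low levels of several of them in the livers of male Mix rats and the high Hsd11b1 in the livers of female BPA rats. All treatment differences in liver are therefore given as a description, with no test, and treatment effects are tested in kidney, thyroid, testis and ovary, which came from the same rats.

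The 3 groups were BPA, Mix and vehicle, all of Sprague-Dawley rats, an outbred strain, at postnatal day 63. In the BPA group dams received 500 mg/kg/day of bisphenol A, and in the Mix group they received the same total as 160 mg/kg/day of bisphenol A, 160 mg/kg/day of bisphenol F and 180 mg/kg/day of bisphenol S; dams of the third group received vehicle. Dosing of dams ran from gestation day 6 to lactation day 6, and the pups were then dosed themselves from postnatal day 7 to day 63, at 250 mg/kg/day in total in both treated groups. Liver, kidney and thyroid were sampled in both sexes, testis in males and ovary in females, with 3 rats per organ, sex and treatment except in female kidney, where BPA and vehicle had 2 each. The 70 libraries came from 18 rats, recognised by a code that recurs across organs. The time of day at collection, the litter of each pup and the plasma hormone are not in the labels used here.

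Glucocorticoids are steroid hormones of the adrenal cortex, chiefly corticosterone in the rat, and their secretion follows a daily rhythm and rises with stress. The hormone binds the receptor Nr3c1 in the cytoplasm, where Fkbp5 is part of the chaperone complex that lowers hormone affinity, and the receptor then enters the nucleus and binds DNA. Inside cells Hsd11b1 converts the inactive 11-keto form to the active hormone, most of all in liver. Among the induced genes, Tsc22d3 encodes GILZ, an anti-inflammatory leucine zipper protein, Zbtb16 a zinc finger repressor, Usp2 a ubiquitin protease, Mfsd2a a transporter of lysophosphatidylcholine, and Cdkn1a the cell cycle inhibitor p21.

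Promoter windows of 5 of the 8 genes were found in the RefSeq table of build GRCr8, with 8 windows in all because Tsc22d3 has 3 and Nr3c1 has 2; each window runs from 250 bases before to 50 bases after a transcription start. The windows of Fkbp5 (chr20:6543506-6543805, minus strand) and of one Tsc22d3 start (chrX:109009985-109010284, minus strand) are printed because these genes were low together in male liver and kidney, and because these particular windows are built differently. The Fkbp5 window is 77% G or C and holds no match to any motif searched, whereas the printed Tsc22d3 window is 50.7% G or C and holds a TATAAA match, in capitals, that begins 44 bases before the start. The other Tsc22d3 windows are 52% and 73% G or C and hold no match, so the contrast is not one between the genes.
Fkbp5: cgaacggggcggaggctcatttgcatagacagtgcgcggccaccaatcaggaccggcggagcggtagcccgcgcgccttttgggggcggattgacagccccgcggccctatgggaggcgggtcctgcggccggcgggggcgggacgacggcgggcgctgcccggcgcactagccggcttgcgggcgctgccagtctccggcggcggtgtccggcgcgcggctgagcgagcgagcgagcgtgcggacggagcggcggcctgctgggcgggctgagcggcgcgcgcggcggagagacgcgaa
Tsc22d3: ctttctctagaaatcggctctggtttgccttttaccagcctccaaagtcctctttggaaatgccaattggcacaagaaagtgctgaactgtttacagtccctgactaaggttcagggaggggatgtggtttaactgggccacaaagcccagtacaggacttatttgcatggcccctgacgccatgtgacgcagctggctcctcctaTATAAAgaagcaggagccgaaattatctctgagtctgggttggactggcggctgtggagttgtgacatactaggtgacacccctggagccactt
The palindromic glucocorticoid response element (AGAACA and TGTTCT with 3 bases between), its core TGTTCT, the clock factors' E-box CACGTG and TATAAA were searched on both strands; the core lies inside the palindrome. They occurred in 0.0149%, 20.7%, 6.42% and 14.2% of all 33469 windows of this length, and in 0, 0, 0 and 1 of the 8 windows of the set. Absence from these windows says nothing about binding by the receptor, which often acts from distant sites. The other 3 genes, Zbtb16, Mfsd2a and Hsd11b1, are named only.

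Levels are CPM, the usual depth-normalised counts, scaled by edgeR's TMM factors, from libraries of 4803810 to 10930000 counts, rounded to 6 digits. In vehicle rats each gene had its own organ profile. Usp2 averaged 1118 ± 12.7 CPM in testis (SD, n = 3) and at most 97.7 ± 23.1 CPM, in male kidney, elsewhere. Fkbp5 was highest in ovary, at 426 ± 15.9 CPM, and lowest in female liver, at 22.2 ± 7.20 CPM (SD, n = 3 each). Mfsd2a was a liver gene, at 200.1 ± 105 CPM in males and 99.2 ± 23.4 CPM in females (SD, n = 3 each), with overlapping ranges; it reached at most 1.05 CPM in any kidney library and was too low to be tested there. Hsd11b1 averaged 417 ± 61.2 CPM in male kidney and 353 ± 70.3 CPM in male liver, which overlapped, and only 22.2 ± 3.05 CPM in female liver (SD, n = 3 each). Nr3c1 lay between 56.6 and 136 CPM on average everywhere but testis, at 10.4 ± 0.526 CPM (SD, n = 3), and neighbouring organs in that order overlapped from female kidney down to female thyroid. Zbtb16 was at most 32.5 CPM in any library and had 3 counts or fewer in 5 of the 70. In bulk tissue, fewer cells of a type and less RNA per cell cannot be told apart in any of these values.

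Libraries carried the defining transcripts of their organ, led by Alb in liver, Slc34a1 or Umod in kidney, Tg in thyroid, Tnp1 in testis and Inha in ovary. Thyroid libraries also held 22686 to 113587 CPM of parathyroid and C cell markers. Markers of the adrenal cortex, which makes the hormone, summed to at most 23.4 CPM in any library, with Cyp11b1, Cyp11b2 and Mc2r at 0 in several groups. The share of ribosomal RNA among counts ranged from 0.657% to 37.1% and differed between some treatment groups, and it is given where it moved with a result.

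In male liver the 6 induced genes were lowest in Mix rats, and in Mix rats all 6 lay below every vehicle rat. Zbtb16 had 7.22, 1.83 and 3.05 CPM in BPA livers and 1.25, 0.792 and 0.605 CPM in Mix livers, against 30.3, 30.3 and 15.2 CPM in vehicle livers. The log2 difference from vehicle was -2.64 ± 0.43 in BPA and -4.83 ± 0.51 in Mix (SE). The 3 groups were separated completely, with Mix lowest. Tsc22d3 showed the same order, with 40.7, 51.2 and 39.3 CPM in BPA livers and 14.7, 18.2 and 15.8 CPM in Mix livers, against 105, 112.6 and 52.5 CPM in vehicle livers. Its log2 difference from vehicle was -1.04 ± 0.26 in BPA and -2.47 ± 0.27 in Mix (SE). Fkbp5, the receptor's own brake, had 23.1, 18.5 and 38.6 CPM in BPA livers and 13.7, 14.3 and 14.3 CPM in Mix livers, against 71.0, 53.8 and 28.8 CPM in vehicle livers. Here 1 BPA liver lay above the lowest vehicle liver, and the Mix difference was -1.87 ± 0.32 (SE).

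Usp2 had 17.5, 22.3 and 26.1 CPM in BPA livers and 3.53, 3.43 and 7.96 CPM in Mix livers, against 71.4, 60.4 and 35.0 CPM in vehicle livers, a Mix difference of -3.46 ± 0.35 on the log2 scale (SE). Mfsd2a, known to be induced by fasting in mouse liver, had 37.9, 43.3 and 55.1 CPM in BPA livers and 31.3, 32.6 and 29.3 CPM in Mix livers, against 219.5, 294 and 86.8 CPM in vehicle livers. Its log2 difference was -2.14 ± 0.33 in BPA and -2.69 ± 0.34 in Mix (SE), so both treatments lay well below vehicle. Cdkn1a had 32.3, 25.4 and 64.7 CPM in BPA livers and 18.3, 17.3 and 21.4 CPM in Mix livers, against 125, 125 and 64.5 CPM in vehicle livers. The receptor and the activating enzyme did not share this pattern: Nr3c1 had 96.02 to 118 CPM in Mix livers against 74.8 to 142 CPM in vehicle livers, and Hsd11b1 had 453 to 652 CPM in BPA livers against 285 to 425 CPM in vehicle livers, a log2 difference of 0.62 ± 0.22 (SE).

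Counted over the set, 4 genes lay below every vehicle library in BPA males, where 7.46% of all tested rows did, and 1 above, where 6.42% did; in Mix males 6 lay below, where 6.15% did, and 0 above, where 5.77% did. Against BPA, 6 genes were below in Mix males, where 5.04% of all rows were. The median log2 difference of the 8 genes was -1.19 in BPA and -2.47 in Mix, beside -0.01 and -0.00 over all rows, and nothing is read from this because the choice of genes used it. Every comparison with vehicle shares the same vehicle libraries. One vehicle rat, replicate 3, was the lowest of the 3 for all 6 induced genes in liver, and its liver library had a ribosomal RNA share of 23.3%, beside 2.49% to 2.68% in the other two; its part in the result was not tested, but leaving it out made the Mix difference of Tsc22d3 -2.75 and that of Zbtb16 -5.08. Macrophage markers summed to 234 to 287 CPM in BPA livers, 209 to 313 CPM in Mix livers and 292 to 359 CPM in vehicle livers, and their part in these values was not tested.

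**Figure D1:**
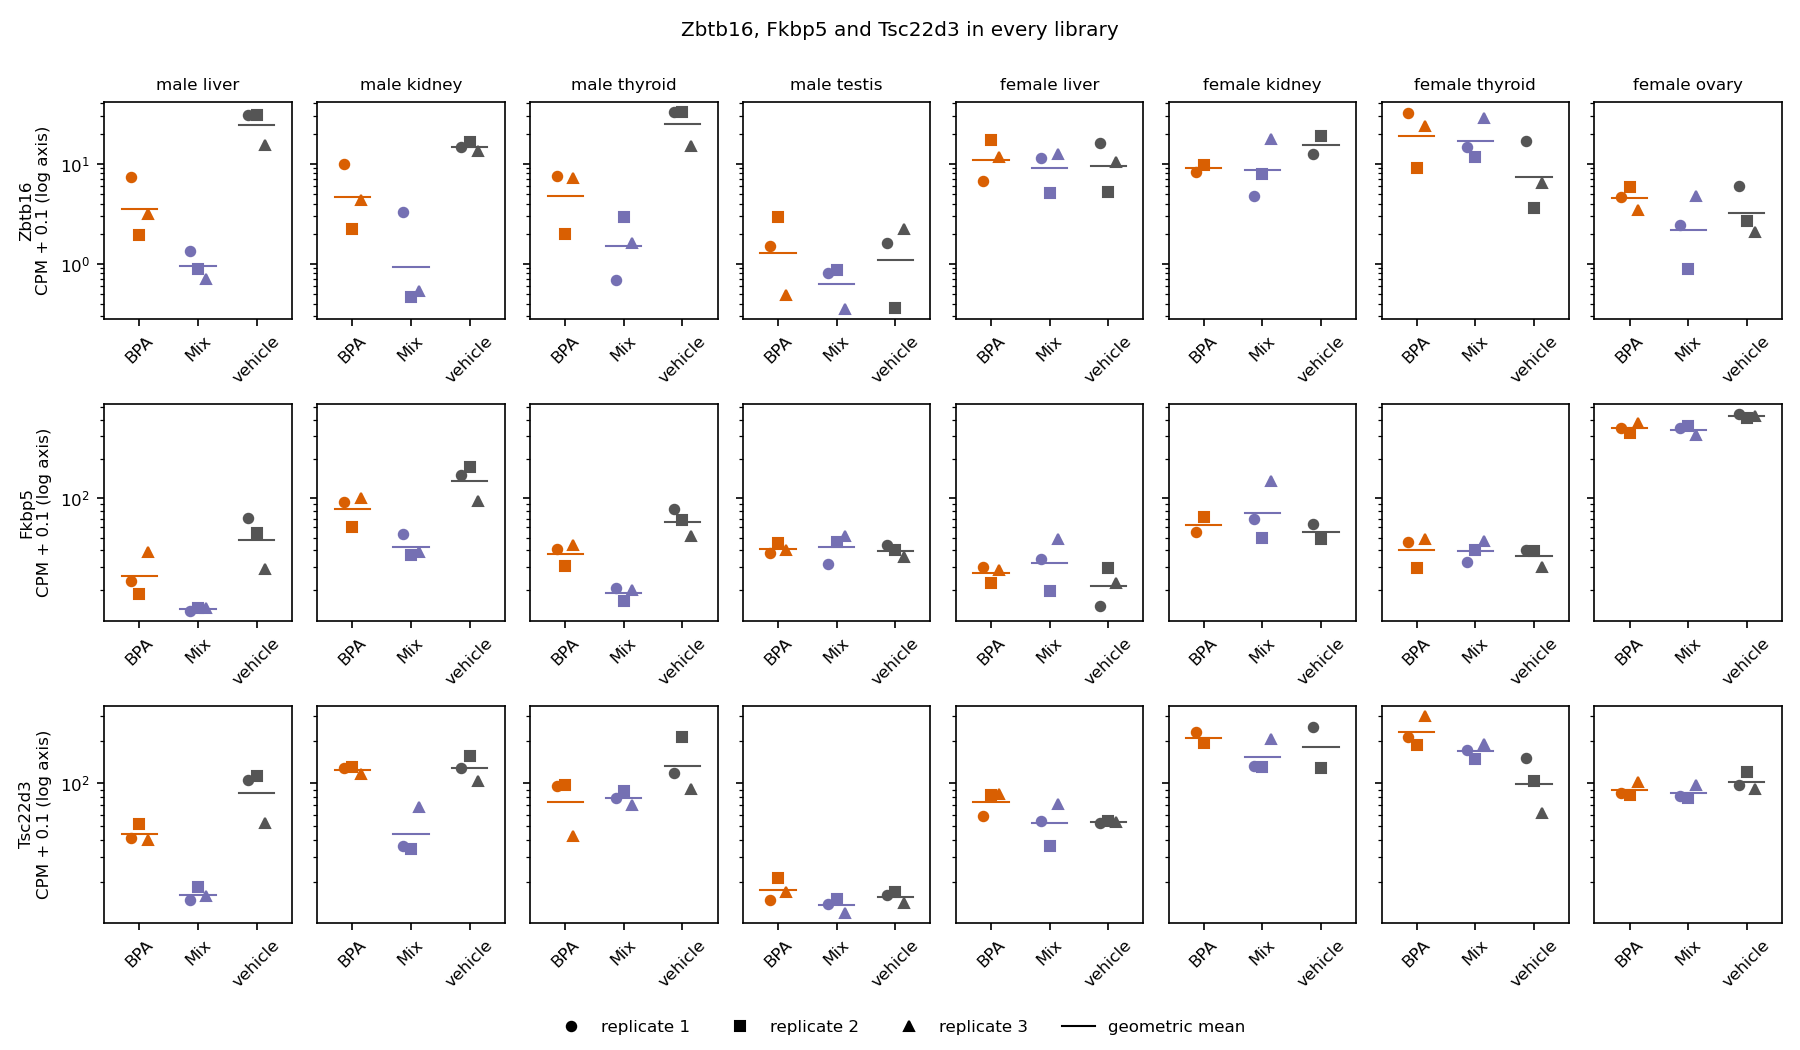
CPM of Zbtb16, Fkbp5 and Tsc22d3 in every library, by organ, sex and treatment, on a log axis with 0.1 added; symbols are replicates and lines are geometric means. In male liver and male thyroid, Zbtb16 of the BPA and Mix rats lies below all vehicle rats, with 0.587 to 2.87 CPM in Mix thyroids and 15.0 to 32.5 CPM in vehicle thyroids.

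In female liver the pattern was different. Hsd11b1 had 191, 49.6 and 165 CPM in BPA livers and 55.4, 104 and 92.1 CPM in Mix livers, against 18.7, 23.2 and 24.5 CPM in vehicle livers, log2 differences of 2.61 ± 0.40 and 1.92 ± 0.39 (SE). Every treated female lay above every vehicle female, and all remained below the male range of 285 to 652 CPM. Mfsd2a had 158, 206 and 154 CPM in BPA livers against 121, 74.3 and 102 CPM in vehicle livers, a difference of 0.80 ± 0.22 (SE), opposite to the males. Cdkn1a had 89.3, 57.4 and 64.7 CPM in Mix livers against 41.2, 44.6 and 35.1 CPM in vehicle livers, a difference of 0.81 ± 0.32 (SE). Zbtb16 overlapped throughout, with 5.05 to 17.0 CPM in treated livers and 5.13 to 16.2 CPM in vehicle livers. In all, 3 genes lay above vehicle and 1 below in BPA females, where 7.65% and 8.06% of all rows did, and 2 lay above and 0 below in Mix females, where 7.65% and 6.92% did.

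Male kidney, from the same rats, gave the first tests of the induced genes outside the liver. In Mix kidneys 5 of the 7 testable genes lay below every vehicle kidney, where 7.18% of all 11000 tested rows did, and 0 lay above, where 8.92% did, but none passed an adjusted p of 0.05 in edgeR's quasi-likelihood test, as 0.0273% of all rows did. Fkbp5 had 53.6, 36.8 and 38.7 CPM in Mix kidneys against 150.03, 175 and 94.9 CPM in vehicle kidneys, a log2 difference of -1.70 ± 0.27 (SE) with an adjusted p of 0.0692 from edgeR. Tsc22d3 had 35.9, 34.2 and 67.7 CPM in Mix kidneys against 129.5, 155 and 104 CPM in vehicle kidneys, a difference of -1.50 ± 0.26 (SE, edgeR adjusted p = 0.118). Zbtb16 had 3.17, 0.369 and 0.437 CPM in Mix kidneys against 14.4, 16.3 and 13.3 CPM in vehicle kidneys, a difference of -3.61 ± 0.74 (SE, edgeR adjusted p = 0.229). The last 2 Zbtb16 values rest on 3 counts each, so the size of that difference is poorly fixed.

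Usp2 and Cdkn1a were also lower without overlap in Mix kidneys, Usp2 only narrowly. Usp2 had 70.9, 52.8 and 56.2 CPM in Mix kidneys against 109, 113.2 and 71.2 CPM in vehicle kidneys. Cdkn1a had 5.49, 5.29 and 7.86 CPM in Mix kidneys against 21.5, 33.4 and 12.6 CPM in vehicle kidneys, a difference of -1.85 ± 0.35 (SE, edgeR adjusted p = 0.184). At an unadjusted p under 0.05 edgeR gave 5 of the 7 genes, where 9.20% of all rows had one, and DESeq2 called 4 at an adjusted p of 0.05, among 88 rows. Nr3c1 had 106 to 163 CPM in Mix kidneys and 79.7 to 118 CPM in vehicle kidneys, and Hsd11b1 383 to 436 CPM and 373 to 487 CPM, both overlapping.

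BPA kidneys were closer to vehicle for Tsc22d3, at 128.2, 130.3 and 117 CPM, and none of the 7 genes passed, where 0.136% of all rows did; 5 had an unadjusted p under 0.05, as 21% of all rows had, and DESeq2 called 2, among 869 rows. Usp2 had 52.5, 53.4 and 45.9 CPM in BPA kidneys against 109, 113.2 and 71.2 CPM in vehicle kidneys, a log2 difference of -0.95 ± 0.20 (SE, edgeR adjusted p = 0.0732). Cdkn1a had 7.73, 7.70 and 7.08 CPM in BPA kidneys against 21.5, 33.4 and 12.6 CPM in vehicle kidneys, a difference of -1.58 ± 0.35 (SE, edgeR adjusted p = 0.0749). In all, 3 genes lay below and 2 above vehicle without overlap, where 17.4% and 17.2% of all rows did.

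Between the treatments, 1 of the 7 genes passed in male kidney, where 2.93% of all rows did and 0.355% in the lower direction: Tsc22d3 was lower in Mix than in BPA, at 45.9 CPM on average against 125 CPM, a log2 difference of -1.44 ± 0.26 (SE) with an edgeR adjusted p of 0.0150. The 3 Mix kidneys lay below the 3 BPA kidneys. The ribosomal RNA share was 1.40% to 20.1% in Mix kidneys, 16.3% to 37.1% in BPA kidneys and 1.69% to 3.47% in vehicle kidneys. The call was lost with that share as a covariate (edgeR adjusted p = 0.0675), on leaving out BPA replicate 2 (edgeR adjusted p = 0.0724) and on leaving out BPA replicate 3 (edgeR adjusted p = 0.0541), while the difference stayed between -1.27 and -1.84 in every fit. Fkbp5 differed by -0.98 ± 0.27 (SE, edgeR adjusted p = 0.0766), which shrank to -0.31 with the covariate.

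In female kidney no gene passed in any of the 3 comparisons, where 0% of all rows did; 3, 1 and 2 of 7 genes had an unadjusted p under 0.05 in edgeR for BPA, Mix and Mix against BPA, where 16.4%, 10.4% and 7.29% of all rows had one, and DESeq2 called 0 in each. Usp2 had 79.9 and 93.7 CPM in BPA kidneys against 38.5 and 51.1 CPM in vehicle kidneys, and Cdkn1a had 14.9 and 43.4 CPM against 7.89 and 13.8 CPM. Both genes lay above vehicle, opposite to the males. When both sexes were fitted jointly, 2 of 7 genes had a sex difference in the BPA effect, where 4.73% of all rows did: the male effect minus the female effect was -1.91 ± 0.42 for Usp2 (SE, edgeR adjusted p = 0.0245) and -3.00 ± 0.71 for Cdkn1a (SE, edgeR adjusted p = 0.0307). They rest on 2 BPA and 2 vehicle females. The ribosomal RNA share was 16.3% to 37.1% in male BPA kidneys and 1.69% to 3.47% in male vehicle kidneys. In females it was 17.1% to 20.7% and 19.0% to 37.0%. The joint fit did not include that share. With it as a covariate in male kidney alone, edgeR called 1 row for BPA in place of 15. Leaving out male vehicle replicate 1, female vehicle replicate 2 or female BPA replicate 2 left 0 calls, and leaving out male vehicle replicate 2, male BPA replicate 1 or 2, female vehicle replicate 1 or female BPA replicate 1 left 1. For the Mix effect and for Mix against BPA in kidney no gene of the set passed, where 0.00858% of all rows did in each. In the Mix effect Fkbp5 had the smallest unadjusted p, with a difference of -2.30 ± 0.49 (SE, edgeR adjusted p = 0.278), and the difference was larger for Zbtb16, at -2.97 ± 0.96, and Cdkn1a, at -2.35 ± 0.68 (SE, edgeR adjusted p = 0.361 and 0.339).

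In male thyroid Zbtb16 and Fkbp5 again lay in the order Mix, BPA, vehicle. Zbtb16 had 7.50, 1.89 and 7.14 CPM in BPA thyroids and 0.587, 2.87 and 1.52 CPM in Mix thyroids, against 32.5, 32.5 and 15.0 CPM in vehicle thyroids. Fkbp5 had 40.7, 30.0 and 43.8 CPM in BPA thyroids and 20.4, 16.2 and 19.8 CPM in Mix thyroids, against 83.5, 68.4 and 51.3 CPM in vehicle thyroids. Both genes separated the treated from the vehicle rats completely. Tsc22d3 did not follow that order. It had 95.5, 97.5 and 42.1 CPM in BPA thyroids and 78.6, 88.7 and 70.0 CPM in Mix thyroids. Vehicle thyroids had 117, 215 and 91.6 CPM of Tsc22d3. Its Mix values lay below every vehicle value, while its BPA values overlapped both other groups.

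The Mix differences were -4.01 ± 0.73 for Zbtb16 (SE, edgeR adjusted p = 0.515) and -1.85 ± 0.26 for Fkbp5 (SE, edgeR adjusted p = 0.458), and the BPA differences -2.27 ± 0.66 and -0.83 ± 0.25 (SE, edgeR adjusted p = 0.586 for both). No gene of the set passed in any of the 3 comparisons, where 0% of the 11119 rows tested did. At an unadjusted p under 0.05 edgeR gave 3 genes in each comparison with vehicle, where 8.23% (BPA) and 4.96% (Mix) of all rows had one, and DESeq2 called 0 genes for BPA and 2 for Mix, among 14 and 34 rows. The edgeR count for BPA takes in Usp2, which went the other way. Its rise came from BPA replicate 1, at 329 CPM beside 8.56 and 6.92 CPM, a library with testis transcripts described below. Mix against BPA had 4 genes at an unadjusted p under 0.05, where 13.8% of rows had one, and 1 by DESeq2, among 88 rows. Without overlap, 5 genes were below vehicle and 0 above in Mix thyroids, where 8.14% and 7.52% of all rows were, and 2 genes below in BPA thyroids, where 5.26% were.

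In female thyroid the sign was turned for Tsc22d3, at 215, 187 and 301 CPM in BPA thyroids against 152, 104 and 61.6 CPM in vehicle thyroids, a difference of 1.14 ± 0.32 (SE, edgeR adjusted p = 0.328). Hsd11b1 had 16.5, 22.4 and 12.4 CPM in BPA thyroids and 18.7, 15.4 and 11.8 CPM in Mix thyroids, against 31.4, 56.8 and 45.3 CPM in vehicle thyroids, a Mix difference of -1.54 ± 0.35 (SE, edgeR adjusted p = 0.0725). No gene of the set passed in any comparison, where 0% of all rows did for BPA and for Mix against BPA and 0.00899% did for Mix against vehicle; 2 had an unadjusted p under 0.05 for each treatment, where 13.3% (BPA) and 23% (Mix) of all rows had one, and 1 did between Mix and BPA, where 5.84% had one. DESeq2 called 2 for BPA, 1 for Mix and 0 between them, among 210, 1352 and 40 rows. Without vehicle replicate 1, both genes passed for BPA and for Mix, but so did 1119 rows in place of 0 for BPA and 2093 in place of 1 for Mix. The ribosomal RNA share was 1.93% to 7.39% in BPA thyroids, 11.7% to 23.7% in Mix thyroids and 0.657% to 3.25% in vehicle thyroids. With that share as a covariate edgeR called 0 rows in any comparison. Since the Mix and vehicle shares did not overlap, share and Mix treatment cannot be told apart here. A sex difference in the effect was not called for any of the 8 genes in thyroid, where 0% of rows were for each effect against vehicle and 0.00833% for Mix against BPA; for Mix the largest was Zbtb16, at -5.13 ± 1.03 (SE, edgeR adjusted p = 0.379).

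**Figure D2:**
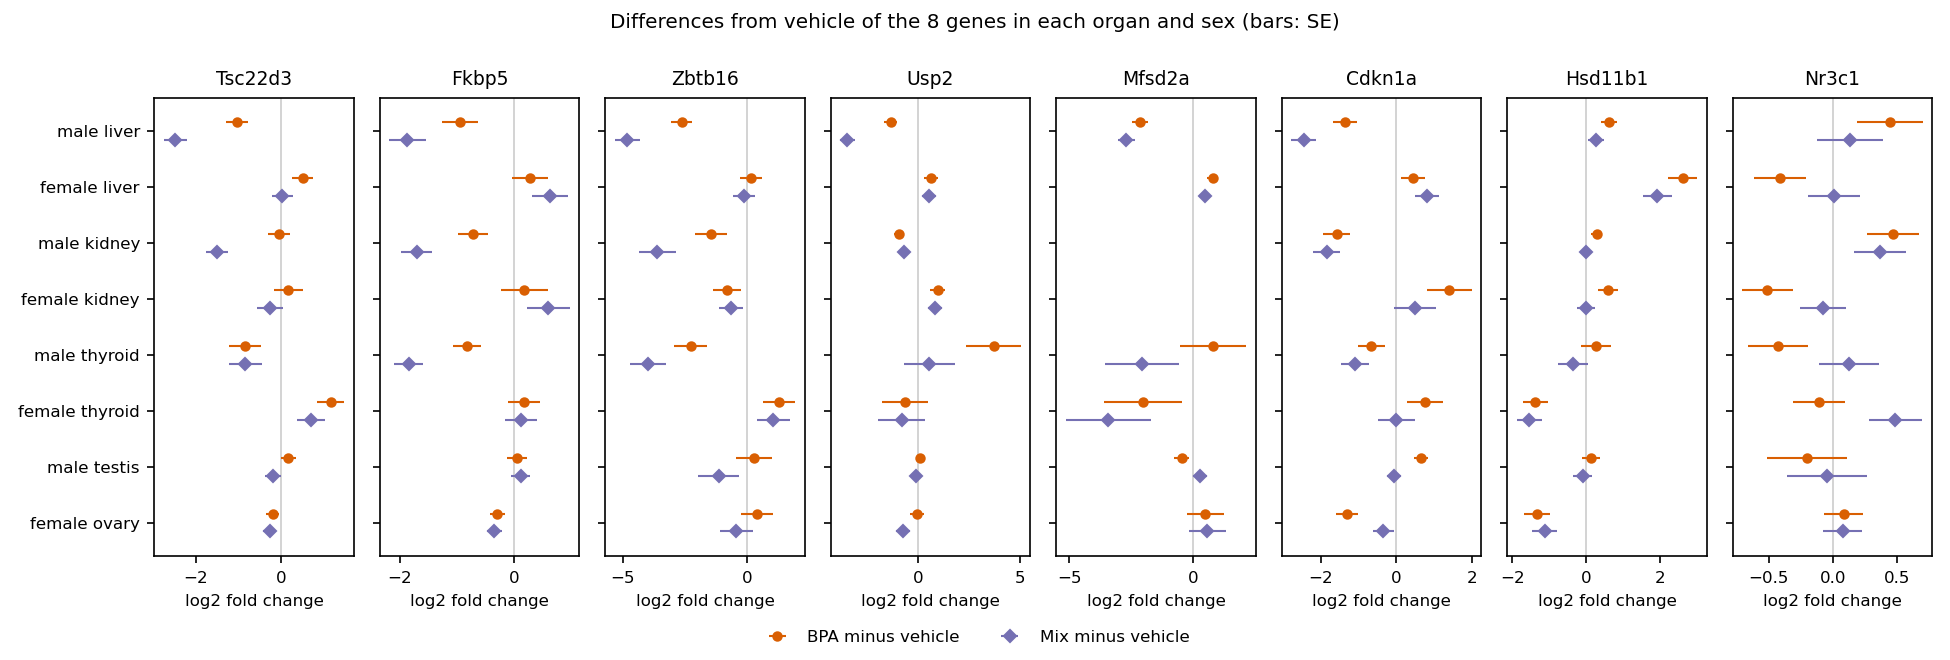
Log2 fold changes of the 8 genes from vehicle in each organ and sex, circles for BPA and diamonds for Mix, with SE bars; axes differ between genes, and genes below the count filter have no point. Tsc22d3, Fkbp5 and Zbtb16 lie left of 0 in male liver, kidney and thyroid for Mix, with Zbtb16 at -4.83, -3.61 and -4.01.

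In testis no gene of the set passed, where 0% of all rows passed for each treatment against vehicle and 0.775% for Mix against BPA; 1 gene for BPA and 0 for Mix had an unadjusted p under 0.05, where 12% and 5.33% of all rows had one, and DESeq2 called 0 against vehicle. Between Mix and BPA 2 genes had an unadjusted p under 0.05, where 17.2% of rows had one, and DESeq2 called 1, among 449 rows. Tsc22d3 had 14.8 to 21.2 CPM in BPA testes and 12.01 to 15.0 CPM in Mix testes, against 14.2 to 16.9 CPM in vehicle testes. Cdkn1a had 22.4, 36.4 and 28.0 CPM in BPA testes against 16.4, 18.8 and 19.8 CPM in vehicle testes, a log2 difference of 0.66 ± 0.18 (SE, edgeR adjusted p = 0.257), with no overlap.

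In ovary 2 of the 8 genes fell in BPA rats, where 6.79% of all 10871 rows passed and 3.88% passed as lower. Cdkn1a had 151, 74.8 and 93.7 CPM in BPA ovaries against 242, 231 and 321 CPM in vehicle ovaries, a log2 difference of -1.31 ± 0.29 (SE) with an edgeR adjusted p of 0.0192. Hsd11b1 had 35.2, 10.6 and 13.1 CPM in BPA ovaries and 24.5, 21.1 and 23.2 CPM in Mix ovaries, against 48.1, 46.8 and 54.5 CPM in vehicle ovaries. Its differences were -1.33 ± 0.34 for BPA (SE, edgeR adjusted p = 0.0380) and -1.12 ± 0.34 for Mix (SE, edgeR adjusted p = 0.0591). In Mix ovaries no gene of the set passed, where 9.12% of all rows did, and 2 had an unadjusted p under 0.05, where 25.5% had one; DESeq2 called 2, among 1507 rows. Between Mix and BPA no gene passed, where 0.212% of rows did; 1 had an unadjusted p under 0.05, where 12% had one, and DESeq2 called 1, among 287 rows.

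Fkbp5 had 347, 318 and 379.9 CPM in BPA ovaries and 347, 357 and 304 CPM in Mix ovaries, against 442, 409.9 and 427 CPM in vehicle ovaries. It lay below every vehicle ovary in both treatments without passing, with log2 differences of -0.29 ± 0.13 in BPA (SE, edgeR adjusted p = 0.207) and -0.34 ± 0.13 in Mix (SE, edgeR adjusted p = 0.1246). Without overlap, 3 genes were below vehicle in BPA ovaries and 2 in Mix ovaries, where 14.4% of all rows were in each.

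The ovarian calls depended on single libraries. Leaving out vehicle replicate 3, BPA replicate 2 or BPA replicate 3 ended both calls, while leaving out vehicle replicate 1, vehicle replicate 2 or Mix replicate 3 ended that of Hsd11b1. The ribosomal RNA share was 12.4% to 19.1% in BPA ovaries, 18.6% to 23.8% in Mix ovaries and 20.6% to 29.3% in vehicle ovaries. With it as a covariate, calls over all rows for BPA were 100 in place of 738, and Hsd11b1 was no longer called (edgeR adjusted p = 0.0519) while Cdkn1a was (edgeR adjusted p = 0.0455). The 5 ovary markers found in the table summed to 1553 to 2864 CPM in BPA ovaries and 984 to 1456 CPM in vehicle ovaries, with none at 0. Macrophage markers summed to 132 to 203.1 CPM in BPA ovaries and 227 to 301 CPM in vehicle ovaries, with Marco at 0, and the part of either in the fall of Hsd11b1 and Cdkn1a was not tested. Zbtb16, at 3.35 to 5.71 CPM in BPA ovaries and 1.96 to 5.88 CPM in vehicle ovaries, overlapped.

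**Figure D3:**
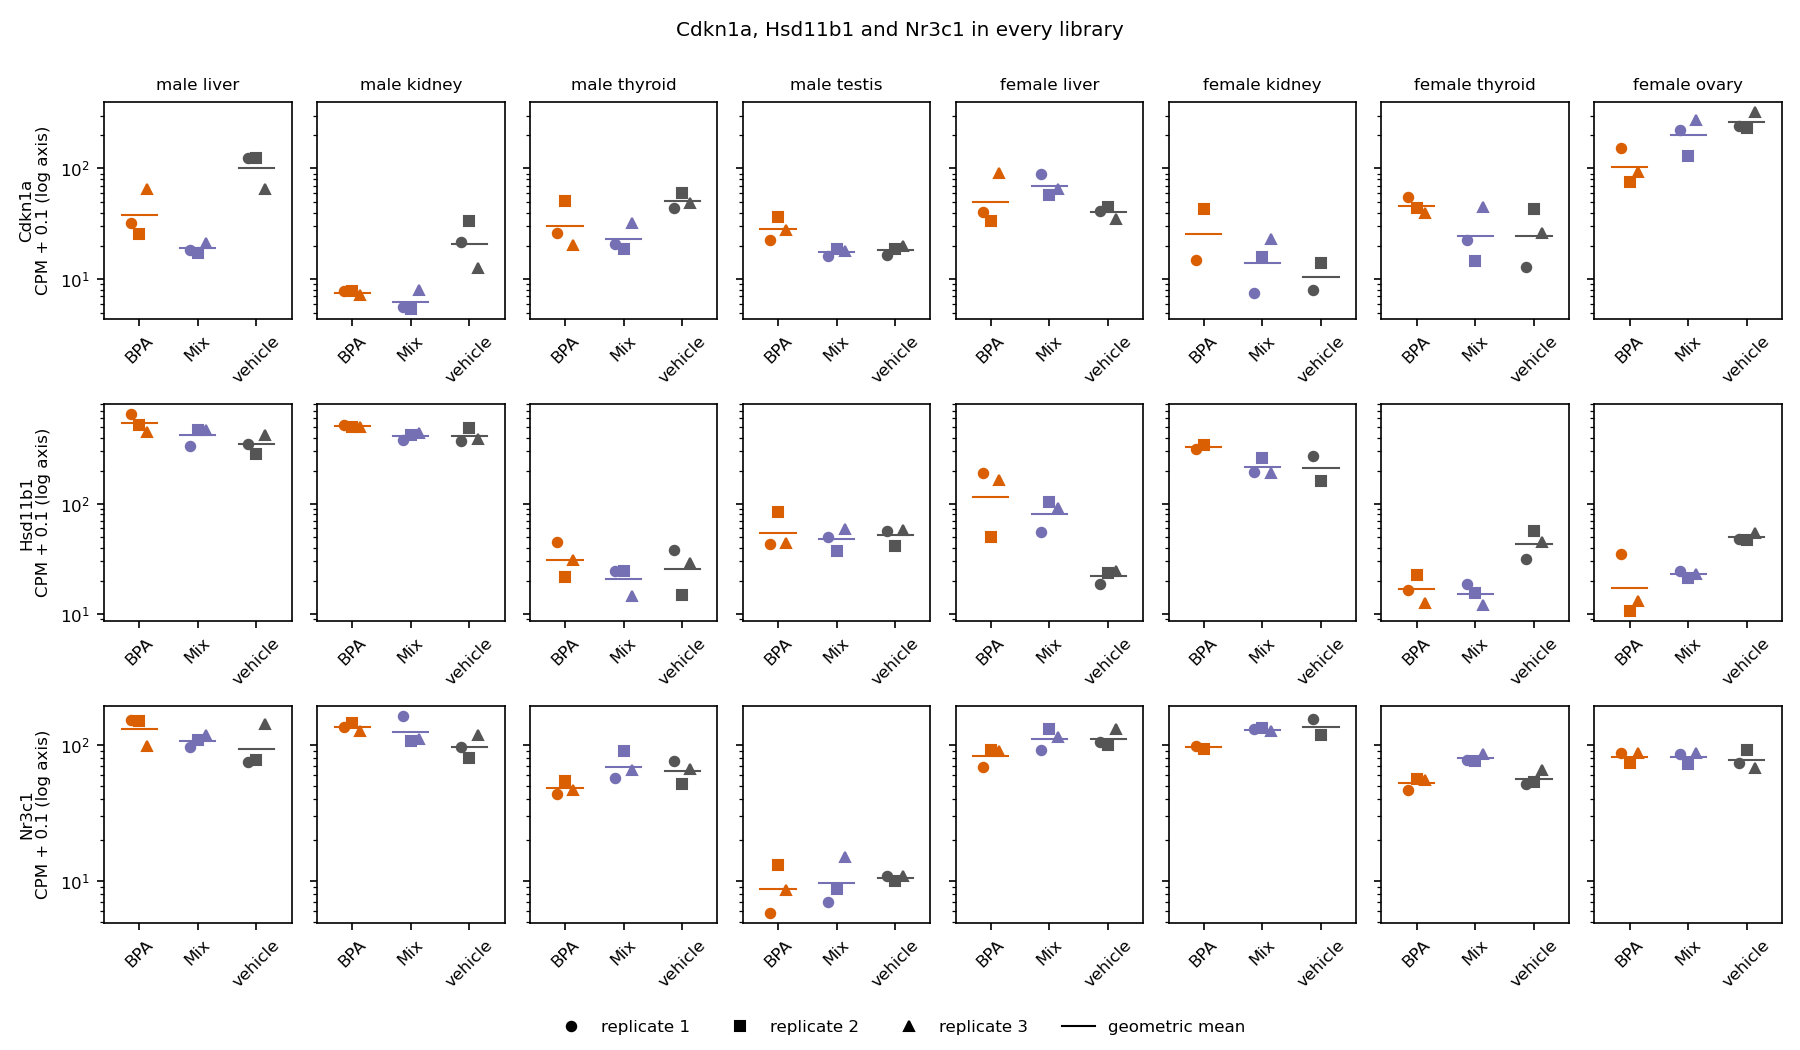
CPM of Cdkn1a, Hsd11b1 and Nr3c1 in every library, on a log axis with 0.1 added; symbols are replicates and lines are geometric means. Hsd11b1 is higher in treated female livers, with 49.6 to 191 CPM in BPA livers against 18.7 to 24.5 CPM in vehicle livers, and lower in treated ovaries, with 10.6 to 35.2 CPM in BPA ovaries against 46.8 to 54.5 CPM in vehicle ovaries.

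The same rats were compared across organs. Vehicle replicate 3, the lowest vehicle rat in liver, was also the lowest of the 3 vehicle kidneys for all 6 induced genes and the lowest of the 3 vehicle thyroids for Tsc22d3, Fkbp5 and Zbtb16. Its kidney and thyroid libraries had ribosomal RNA shares of 2.50% and 1.07%, within or below the 1.37% to 3.86% of the other vehicle rats in those organs.

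Within treatment groups, deviations from the group mean were correlated between organs of the same rat for 90 gene and organ pairs. In 59 the correlation was positive, with a median r of 0.24; between male kidney and testis 1 of 7 genes was positive, and between male thyroid and testis 3 of 8. For Zbtb16 in male liver and kidney, Pearson's r was 0.77 and Spearman's rho 0.77 over 9 rats, with exact permutation p of 0.0185 and 0.0231, and r was 0.50 without the 2 rats farthest from the median. None of the 90 passed after Benjamini-Hochberg adjustment, the lowest adjusted exact permutation p being 0.75. Here 9 rats in 3 groups of 3 allow no permutation p below 0.00463, and the 7 rats of pairs with female kidney none below 0.0417. Over 90 tests no pair could therefore pass on its own, and nothing is concluded from none passing. Values pooled over treatments are not given, since the treatment groups stood apart.

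**Figure D4:**
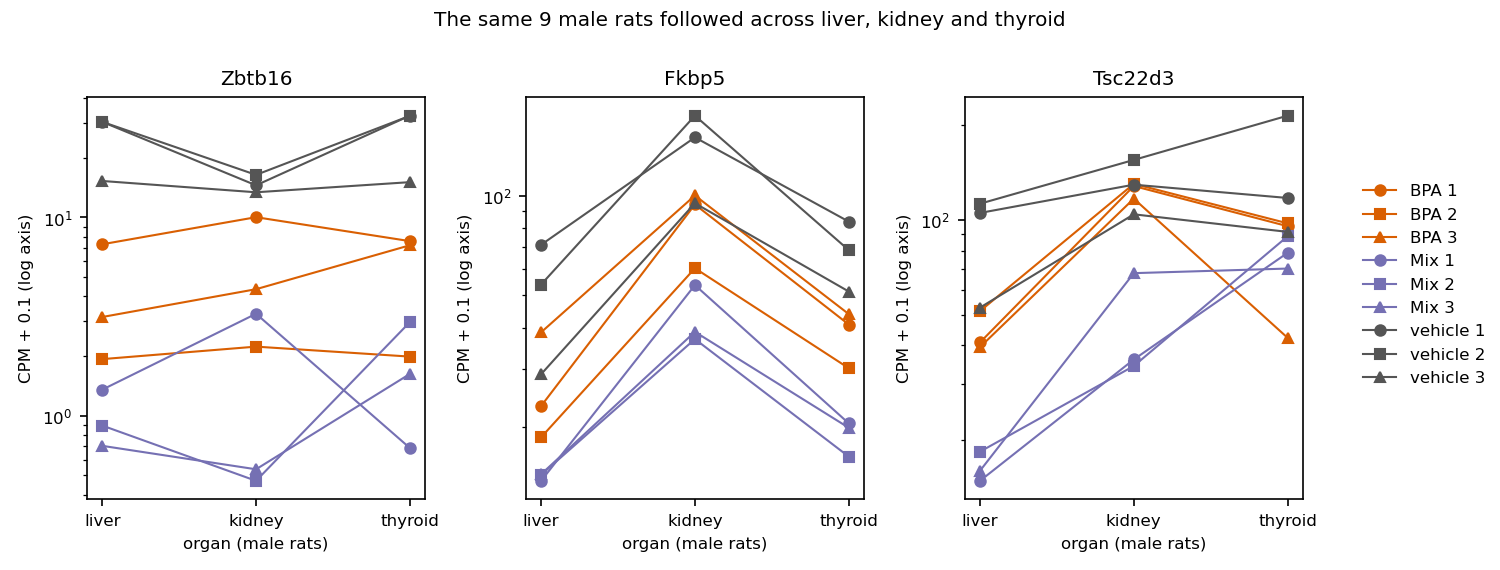
Zbtb16, Fkbp5 and Tsc22d3 of the 9 male rats in liver, kidney and thyroid, in CPM plus 0.1 on a log axis, with a line per rat. The vehicle rat drawn with triangles is the lowest of its group in each organ for each gene, at 15.2, 13.3 and 15.0 CPM for Zbtb16.

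Usp2 outside the testis has to be read beside the spermatid transcript Tnp1, since testis holds on average 1109.6 CPM of Usp2 and 43781 CPM of Tnp1. In male thyroid BPA replicate 1 had 329 CPM of Usp2 and 10502.5 CPM of Tnp1, which is 24.0% of the testis mean, and that share of testis Usp2 comes to 266 CPM. Without this library the Usp2 difference for BPA was -0.22 instead of 3.69 ± 1.34 (SE, edgeR adjusted p = 0.586). In male kidney Tnp1 was 695 to 1515 CPM in Mix kidneys, 31.8 to 182 CPM in BPA kidneys and 193 to 379 CPM in vehicle kidneys, and those shares of testis Usp2 come to 17.6 to 38.4, 0.806 to 4.62 and 4.89 to 9.60 CPM. Subtracting them left Usp2 at 32.5 to 35.2 CPM in Mix kidneys, 44.9 to 52.6 CPM in BPA kidneys and 63.2 to 108 CPM in vehicle kidneys, which separates the 3 groups completely. The subtraction assumes the testis ratio, and it went below 0 in 4 other libraries: -23.6 and -20.2 CPM in female thyroid vehicle replicates 1 and 2, -5.05 CPM in male thyroid vehicle replicate 3 and -2.87 CPM in ovary vehicle replicate 2. In female thyroid, vehicle replicates 1 and 2 had 2752 and 1564 CPM of Tnp1. How testis transcripts came to be in these libraries was not tested.

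**Figure D5:**
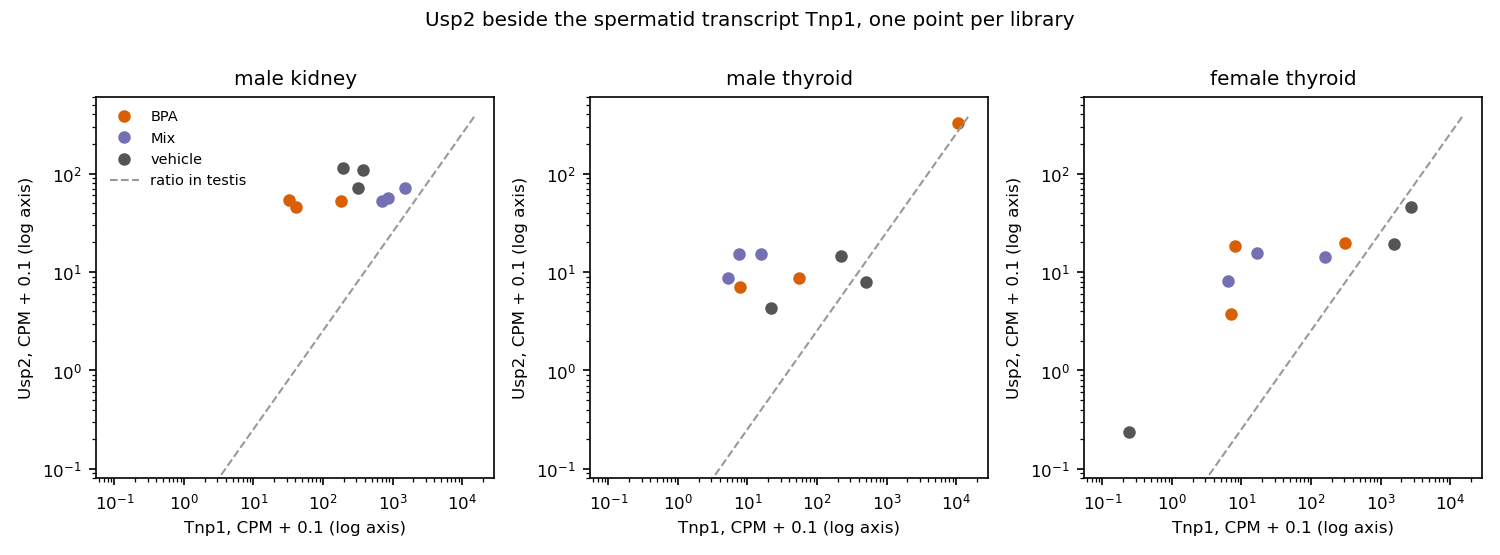
Usp2 against the spermatid transcript Tnp1 in male kidney, male thyroid and female thyroid, 1 point per library, both in CPM plus 0.1 on log axes, with the ratio of the testis means dashed. The thyroid library of BPA replicate 1 lies close to the testis line, at 329 CPM of Usp2 and 10502.5 CPM of Tnp1.

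Over all 70 libraries, after each organ and sex was centred, the rows most like Fkbp5 among 8080 were Zbtb16 (r = 0.74), Tsc22d3 (0.65) and Cdkn1a (0.64), and those most like Tsc22d3 were Zbtb16 (0.69), Fkbp5 (0.65) and Pim3 (0.61). Those most like Zbtb16 were Fkbp5, Tsc22d3 and Tob2 (0.58), and those most like Usp2 were led by Dnajb4 (0.72). The members were chosen with the liver results in view, and several differed between treatment groups. The same was therefore done without liver and with treatment means subtracted, over 52 libraries and 8838 rows. Fkbp5 and Zbtb16 then correlated at 0.44, rank 63 for Fkbp5. No member was then among the 3 rows most like another of these 4 genes. The rows most like Usp2 were then Ubxn11 (0.92), Odf2 (0.92), which encodes a protein of the sperm tail, and Pabpc6 (0.92). The correlations are descriptions over libraries that share rats.

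Other glucocorticoid-responsive genes were followed with a list of 27, chosen with earlier results known. In male liver, described with no test, the median log2 difference of the 25 genes above the count filter was -0.21 in BPA and -0.51 in Mix, beside -0.01 and -0.00 over all rows. Bcl6, a zinc finger repressor named after its values were seen, averaged 2.95 CPM in BPA livers and 2.17 CPM in Mix livers, against 30.0 CPM in vehicle livers. In male kidney edgeR called 0 of 24 against vehicle, where 0.136% (BPA) and 0.0273% (Mix) of all rows passed. Of the 24, 7 (BPA) and 9 (Mix) had an unadjusted p under 0.05, beside the 21% and 9.20% of all rows given above. In ovary, with 21 genes testable, 2 rose and 1 fell in BPA and 3 rose and 2 fell in Mix, where 6.79% and 9.12% of all rows passed. In Mix these were the metallothioneins Mt1a, at 8016 CPM in Mix against 2420.0 CPM in vehicle (log2 1.73 ± 0.23, SE, edgeR adjusted p = 0.00156), Mt2A and the kinase Sgk1, which rose, and Rgs2, a regulator of G protein signalling, and Glul, glutamine synthetase, which fell by 1.07 ± 0.24 and 0.61 ± 0.16 on the log2 scale (SE, edgeR adjusted p = 0.0179 and 0.0345). Of 15 genes that handle receptor and hormone, such as chaperones, coregulators and Srd5a1, the steroid reductase, 0 passed in kidney and thyroid. There 0% to 2.93% of all rows passed, depending on the comparison. In testis 1, the corepressor Ncor1, was higher in Mix than in BPA, where 0.775% of all rows passed. In ovary, of 12 testable, 1 rose and 1 fell in BPA and 2 fell in Mix, where 6.79% and 9.12% of all rows passed. Srd5a1 fell in both treatments, by 1.37 ± 0.23 in BPA and 1.66 ± 0.23 in Mix (SE, edgeR adjusted p = 0.00579 and 0.0022). The coactivator Ncoa1 rose in BPA and the chaperone Ptges3 fell in Mix.

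Cdkn1a is also a target of p53, and of 10 other p53 targets 8 were testable in each organ. In kidney, thyroid and testis 0 passed, where 0% to 2.93% of all rows did, depending on the comparison. In ovary 1 fell in BPA and 2 fell in Mix, where 6.79% and 9.12% of all rows passed. Phlda3, a pleckstrin homology protein that restrains Akt, fell in BPA by 1.32 ± 0.21 (SE, edgeR adjusted p = 0.00445), where Cdkn1a fell too, and in Mix Phlda3 and Bax, a promoter of cell death, fell while Cdkn1a was not called.

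Some clock genes differed in the male Mix rats. Of 10 testable, 2 rose and 0 fell in Mix kidney against vehicle, where 0.0273% of all rows passed, and in ovary, of 11 testable, 1 rose in BPA and 2 in Mix, where 6.79% and 9.12% did. Against BPA, 3 were higher and 1, Arntl, was lower in Mix male kidney, where 2.93% of all rows passed. In male thyroid 0 of 12 testable passed for Mix against vehicle, where 0% of all rows did. Of these, 7 had an unadjusted p under 0.05 in edgeR, where 4.96% of all rows had one. Without overlap 5 lay above and 2 below vehicle, where 7.52% and 8.14% of all rows did. Nr1d1, a clock repressor that is known to peak by day, had 21.6, 18.3 and 20.3 CPM in Mix livers against 3.34, 1.34 and 1.56 CPM in vehicle livers, and 4.56, 0.610 and 4.35 CPM in BPA livers, described with no test. In kidney Dbp, a clock output factor, had 132, 158 and 122 CPM in Mix and 30.4, 26.9 and 33.1 CPM in vehicle, a difference of 2.19 ± 0.17 (SE, edgeR adjusted p = 0.000331). Arntl, which works in the opposite phase, had 5.07, 11.8 and 13.1 CPM in Mix kidneys against 31.8, 39.4 and 31.3 CPM in vehicle kidneys (edgeR adjusted p = 0.118). Glucocorticoid secretion and many of its target genes follow the time of day, and the hour of collection is not in the labels; its part in the low Zbtb16, Tsc22d3 and Fkbp5 of these rats was not tested.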

How the data were processed

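RNA from 70 organ samples of 18 rats was sequenced with QuantSeq 3′ mRNA libraries, in which reads come from the ends of transcripts, so levels are compared within a gene. The deposited values are whole-number counts per gene; reads were handled with FastQC, Bowtie2 and bedtools on build rn6, per the submitters' processing notes, with no versions given, and edgeR is named there too. Strand handling in the counting is not given in the sources used here. Each of the 273 library pairs within an organ and sex differed by more than sampling noise, with a lowest chi-square per degree of freedom of 8.34.

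From the counts, each organ and sex was fitted with its 3 treatment groups by edgeR 4.0.16's quasi-likelihood test in R 4.3.3 after filterByExpr, with TMM scaling and Benjamini-Hochberg adjustment over all rows at 0.05. The standard error is the log2 fold change divided by the root of the F statistic. Sex differences came from a joint fit of both sexes. DESeq2 1.42.0, limits on low counts, a ribosomal RNA covariate, a replicate block and leaving out each library were alternatives. The fitting was tested on simulated Mix against vehicle data. There 2-fold changes were called in 1.49% of cases in male thyroid, 2.99% in female thyroid and 22.4% in female kidney. In the other organs the share was 49.3% to 82.1%. For 4-fold changes it was 52.2% in each thyroid. Little can therefore be read from genes not called in thyroid or female kidney. Fold changes are given for genes at least 2 SE from 0. The 3 rows most like a gene were taken by Pearson's r of log2(CPM + 1). The genes, lists and tests were chosen with earlier results of these data known. Replicates are separate rats, but litter mates may be among them. Replicate numbers mark no shared animal between treatments. The deviations of every same-numbered pair correlated above 0.1 in 1 of 21 comparisons with 3 pairs, Mix against BPA in male kidney, at 0.112 to 0.222. Passing that cut does not establish a pairing.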

Additional observations from a re-analysis of the deposited data

Results flagged for a closer look

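In kidney the BPA effect differed between the sexes for Usp2 and Cdkn1a, the male effect minus the female effect being -1.91 and -3.00 on the log2 scale in edgeR's joint fit. That fit did not include the ribosomal RNA share, which set male BPA kidneys apart from male vehicle kidneys. The log2 difference of Usp2 was -0.95 in male and 0.95 in female kidney, and that of Cdkn1a -1.58 in male and 1.41 in female kidney. For Nr3c1, 0.47 in male and -0.51 in female kidney, the sex difference of 0.98 ± 0.30 (SE) had an edgeR adjusted p of 0.0633.

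Other cases stood out because every treated library of one organ or sex lay on one side of its vehicle libraries and every treated library of another lay on the opposite side. For these the difference was not tested, and the share of all rows with such a pattern was not counted. Liver results were used in choosing the genes, so nothing is read from the liver values standing out. In female kidney BPA and vehicle have only 2 libraries each. Between male and female liver this held under BPA for Tsc22d3, at -1.04 and 0.50, and for Mfsd2a, at -2.14 and 0.80, and under Mix for Cdkn1a, at -2.46 and 0.81. Under BPA Cdkn1a was -1.58 in male kidney and 0.66 in testis, and 1.41 in female kidney and -1.31 in ovary.

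Hsd11b1 turned sign between female organs, though its high level in BPA female liver was among the results that chose the gene. Under BPA it was 2.61 in liver and 0.60 in kidney, against -1.38 in thyroid and -1.33 in ovary. Under Mix it was 1.92 in liver, against -1.54 in thyroid and -1.12 in ovary.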

How the results depend on the processing

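Each log2 fold change at least 2 SE from 0 was refitted under each alternative. In 1038 refits the direction held, and so did the side of the threshold or, in liver, the value within the replicate spread. For tested values this mostly meant staying uncalled. A call was gained in 51 refits and lost in 13, 4 untested liver values moved by more than the replicate spread and 3 reversed. The cause was not tested. Counts of genes called in male kidney for BPA and Mix against vehicle and Mix against BPA were 2, 4 and 2 by DESeq2 and 2, 2 and 2 without the low-count filter. DESeq2 also called 2 (Mix) and 1 (Mix against BPA) in male thyroid, 2 (BPA) and 1 (Mix) in female thyroid, 1 in testis (Mix against BPA), 2 (Mix) and 1 (Mix against BPA) in ovary, and sex differences for 1 gene in kidney (Mix) and 2 and 2 in thyroid (BPA and Mix). Without the low-count filter there was 1 in Mix ovary and 1 sex difference in kidney (Mix). With the ribosomal RNA covariate the counts were 2 (Mix) and 0 (Mix against BPA) in male kidney, 1 in BPA female kidney, 1 in testis (Mix against BPA), and 1 and 1 in ovary (BPA and Mix), among 5, 242, 997, 546, 100 and 638 rows called. The replicate block gave 1 (BPA) and 2 (Mix) in male kidney and 1 in Mix ovary, and it changed no other count. The treatment groups hold different rats, so replicate numbers mark no shared animal and the block is no paired test. With it, Tsc22d3 in male kidney (Mix against BPA) was -1.47 with an edgeR adjusted p of 0.0116.

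Leaving out 1 library moved the counts between 0 and 2 in male kidney for each treatment and between 0 and 3 for Mix against BPA, between 0 and 1 in BPA female kidney, between 0 and 2 in female thyroid for each treatment, between 0 and 1 in testis (BPA, and Mix against BPA), between 0 and 2 in BPA and between 0 and 1 in Mix ovary, and for sex differences between 0 and 3 in kidney (BPA) and between 0 and 2 in thyroid for each treatment. Zbtb16 turned to 0.053 in male kidney (Mix against BPA) with the ribosomal RNA covariate. Usp2 in male thyroid ranged over leave-one-out fits from -0.22 to 4.25 (BPA) and from -3.67 to 0.78 (Mix against BPA). Its Mix against BPA ratio in male kidney turned to -0.51 less the testis share, chosen after seeing the data. Over all rows, DESeq2 called 88 in Mix male kidney where edgeR called 3, and 869 where edgeR called 15 in BPA male kidney.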
